A study of Coregonus migratorius and Coregonus peled with 8 samples.

Results

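The listed genes that share an assembly component were examined in larvae of 2 Siberian whitefishes, the peled (Coregonus peled) and the Baikal omul (Coregonus migratorius). Each gene is known by an identifier of the form TRINITY_DN, _c and _g with a number after each, and the text before _g was taken as its component. All genes of components with at least 2 listed genes were kept. These were 205 of the 2184 listed genes (9.39%), in 99 components, of which 92 hold 2 genes and 7 hold 3, and they form 113 pairs of genes of the same component. The 8 libraries are 1 per group, each a pool of RNA from 12 to 16 whole larvae, and each species has the same 4 groups. Nature larvae came from ponds near a hatchery. Acute larvae were reared in aquaculture and warmed rapidly to 21 °C for 1 h, and chronic larvae were reared in aquaculture and warmed to 21 °C for 24 h on 3 occasions a week. Control larvae were reared in aquaculture without heating. Rearing in aquaculture lasted 1.5 months at 9 to 12 °C in the acute, chronic and control groups. The age and temperature of the nature larvae are not given, so these and origin cannot be told apart. No strain, allele or treatment beyond these is named in the labels. Pooling means that a value is an average over animals, with no measure of how the larvae of a pool differed.

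Trinity, the de novo assembler that writes such identifiers, joins contigs that share stretches of sequence into a component and divides a component into genes. Genes of a component can be copies of a duplicated gene, allelic forms, splice or fragment forms of a gene, or forms of the same gene assembled apart because they differ between populations or species. In salmonid fishes, which include the whitefishes, such copies are common because the ancestor of the family duplicated its whole genome and many duplicates persist. The files do not pair the identifiers with gene names or with sequences, so neither the function of a gene nor the likeness of partners in sequence is reported, and the whole-larva label could not be checked against marker genes. The deposited value is a normalized expression signal of unstated unit. The labels do not say how reads matching more than 1 gene of a component were assigned, so the division of a level between near-identical genes is uncertain. Whether the values are scaled for gene length is not given either. A change in the plain ratio of a pair between libraries does not depend on length. The ratios used below add 1 to each value, so at low values they can depend on it. Shares and sums of a pair are on the deposited scale.

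The members' values were compared on the log2(value + 1) scale, and the difference between the genes of a pair on that scale is called their log2 ratio. The highest value of a member over the 8 libraries was at least 9.28, with a median of 70.7, and 17 members (8.29%, against 9.71% of all listed genes) were listed at 0 in at least 1 library. The list itself holds genes that vary, since the smallest log2 range over the 8 libraries was 2.25 in the list and 2.52 among the members, and the median range was 3.45 and 3.88. Members held 13.5% to 23.0% of the summed value of a library. The 2 nature libraries were nearer to each other than to the aquaculture-reared libraries of their own species among the members, as in the whole list. The median absolute log2 difference over the 205 members was 0.69 between nature peled and nature omul. It was 1.99 to 3.08 between nature peled and the 3 aquaculture-reared peled libraries, and 1.11 to 1.21 between nature omul and the 3 aquaculture-reared omul libraries. Between aquaculture-reared libraries it was 0.38 to 0.90 within a species and 1.54 to 2.67 between species. Nature peled was nearer to the aquaculture-reared omul libraries, at 1.64 to 1.70, than to those of its own species. Nature omul was nearer to the libraries of its own species than to the aquaculture-reared peled libraries, at 1.48 to 2.39. The labelled species of the nature libraries could not be checked from the files, and every nature value below is that of the library so labelled. With 1 library per group, the spread behind each p-value is what the 2 species or the states leave unexplained, not the spread between replicate pools. In the fit of species and state to all 8 libraries, this spread came from all listed genes together, not from the single gene. Whole larvae were measured, so fewer cells of a type and less RNA per cell cannot be told apart.

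Many pairs of a component kept a similar ratio over the 8 libraries. A pair was said to share a profile when the SD of its log2 ratio over the 8 libraries was at most 1. This held for 62 of 113 pairs (54.9%), from 53 components. Among all 2383723 pairs of listed genes from different components it held for 18.8%. Members had higher levels than the list, with a median of the mean value of 24.0 against 10.9. The part of level in this contrast was not tested. The median SD was 0.91 within components and 1.85 between components, and the range within components was 0.088 to 6.26. The pairs nearest to the limit had SDs of 0.979 and 1.02. With the 6 aquaculture-reared libraries alone 59 pairs shared a profile. With a pseudocount of 0.1 in place of 1 these were 50 pairs (44.2%, against 11.5%), and with an SD limit of 0.5 they were 28. Likeness was not exclusive to partners, however. Of the 205 members, 16 had a gene of their own component as the nearest of all 2183 other genes. A partner was among the nearest 20 for 58 members, and the median rank of the nearest partner was 254. Ranks unrelated to profile would centre near the middle of the 2183 genes, so partners were nearer than that. The same counts were not made for genes of different components. Genes whose identifiers share the DN number but not the component formed 118 pairs, of which 33 (28.0%) shared a profile, with a median SD of 1.77.

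**Figure D1:**
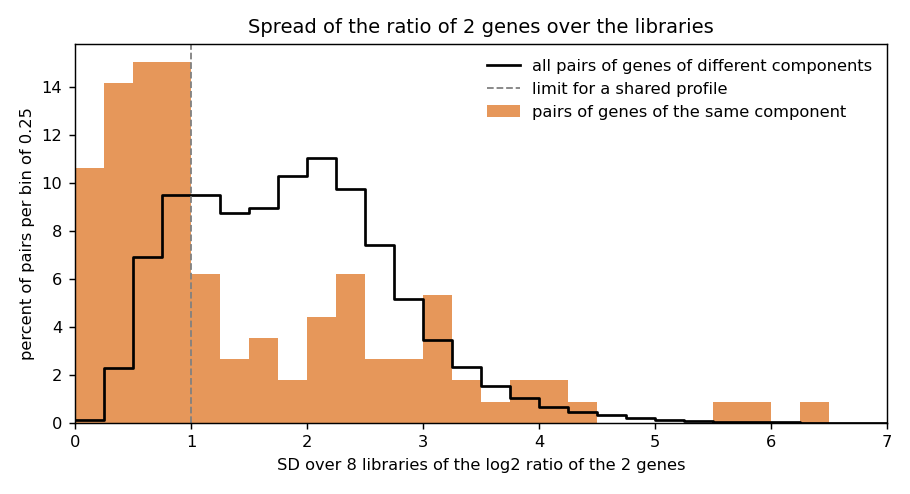
Histogram of the SD over 8 libraries of the log2 ratio of 2 genes, in bins of 0.25, for the 113 pairs of the same component (bars) and for all pairs of listed genes of different components (line), as percent of pairs. The bars gather left of the dashed limit of 1, where 62 of 113 pairs lie, and a tail of bars runs to 6.26.

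The 2 pairs with the steadiest ratio differed in level but moved together. TRINITY_DN1500_c0_g2 was at 5.003, 14.7, 8.44 and 19.1 in nature, acute, chronic and control peled, and at 10.6, 41.4, 24.7 and 66.7 in the same states of omul. TRINITY_DN1500_c0_g3 was at 20.1, 54.2, 35.2 and 77.2 in nature, acute, chronic and control peled, and at 39.5, 172, 101 and 258 in the same states of omul. The second gene stood above the first in all 8 libraries, the SD of the log2 ratio was 0.088, and both genes were highest in the control library of each species and lowest in nature. The aquaculture-reared difference of peled minus omul was -1.54 (SE 0.32, limma adjusted p = 0.00248) for TRINITY_DN1500_c0_g2 and -1.62 (SE 0.37, limma adjusted p = 0.00405) for TRINITY_DN1500_c0_g3, so both were lower in peled. TRINITY_DN6345_c0_g2 was at 168, 10.3, 37.9 and 17.3 in nature, acute, chronic and control peled, and at 109, 74.2, 65.6 and 62.5 in the same states of omul. TRINITY_DN6345_c0_g3 was at 204, 13.4, 57.5 and 23.4 in nature, acute, chronic and control peled, and at 132, 83.3, 75.4 and 77.3 in the same states of omul. The ratio of these 2 genes had an SD of 0.13 and both were highest in nature peled and lowest in acute peled. Both were lower in aquaculture-reared peled, at differences of -1.77 (SE 0.44, limma adjusted p = 0.00631) and -1.54 (SE 0.47, limma adjusted p = 0.0158), while in nature their values were higher in peled.

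In the 6 aquaculture-reared libraries 70 members (34.1%, against 38.7% of all listed genes) were higher in peled than in omul and 95 (46.3%, against 45.7%) were lower (limma, adjusted p below 0.05 over 2184 genes). Together these were 165 members, or 80.5%, against 84.4% of all listed genes, so the members were called about as often as the list. By pair, both genes were called in the same direction in 43 of 113 pairs (38.1%, against 35.9% of pairs from different components) and in opposite directions in 32 (28.3%, against 35.4%). In 30 pairs 1 gene was called (26.5%, against 26.3%) and in 8 neither was (7.08%, against 2.42%). Among the 62 pairs with a shared profile, both genes were lower in peled in 24 (38.7%, against 54.4% of such pairs from different components) and both higher in 11 (17.7%, against 30.2%). A steady ratio by itself leaves little room for opposite calls. Over all 8 libraries, nature included, 72 members were called (35.1%, against 35.9% of the list), 35 higher and 37 lower in peled, against 17.9% of the list in each direction. That count was between 4 and 13 when any 1 of the 6 aquaculture-reared libraries was left out, and was 165 without either nature library. In the latter case the remaining nature library is fitted exactly, so the fit nearly repeats that of the 6 aquaculture-reared libraries.

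In 26 pairs, from 26 components, the genes were mirror images between the species. A pair was called mirrored when, in each of the acute, chronic and control states, one gene was at least 2-fold higher in peled than in omul and the other at least 2-fold lower. Fold limits for pairs, here and below, apply to values with 1 added unless another pseudocount is given. Mirrored pairs made up 23.0% of the 113 pairs and 21.4% of all pairs from different components, so the existence of such pairs is not particular to components. The pair nearest to the limit on the inner side had a log2 difference of 1.02 in its weakest state, and the nearest outside had 0.985. The gene higher in peled had a median log2 difference of 3.18 and the gene lower in peled -3.16. Because these libraries chose the pairs, their differences are a description. In 16 of the 26 pairs the gene higher in peled had the lower number after _g.

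In aquaculture the 4 most extreme mirrored pairs had almost their whole level in a different gene in each species. TRINITY_DN29953_c0_g1 was at 90.6, 161, 176 and 196 in nature, acute, chronic and control peled, and at 148, 0.550, 0.631 and 2.52 in the same states of omul. TRINITY_DN29953_c0_g2 was at 188, 0.440, 1.16 and 0.487 in nature, acute, chronic and control peled, and at 233, 199, 206 and 255 in the same states of omul. In aquaculture each species therefore had a high level of 1 gene and a level near 0 of the other, whereas in nature both genes were high in both species. The sum of the 2 genes was at 278, 161, 177 and 196 in nature, acute, chronic and control peled, and at 381, 199.9, 207 and 257 in the same states of omul, and its difference in aquaculture was -0.31 (SE 0.39, limma adjusted p = 0.475). TRINITY_DN14335_c0_g1 was at 46.8, 246, 506 and 237 in nature, acute, chronic and control peled, and at 53.5, 1.25, 1.64 and 2.66 in the same states of omul. TRINITY_DN14335_c0_g2 was at 65.9, 1.22, 21.8 and 1.01 in nature, acute, chronic and control peled, and at 46.8, 232, 294 and 263 in the same states of omul. Chronic peled, with 21.8 for the second gene, was the least one-sided library of aquaculture, and the sum differed by 0.25 (SE 0.44, limma adjusted p = 0.594). TRINITY_DN19477_c0_g1 was at 95.7, 162, 109 and 131 in nature, acute, chronic and control peled, and at 134, 1.70, 1.25 and 1.98 in the same states of omul. TRINITY_DN19477_c0_g2 was at 189, 0.427, 1.27 and 0.406 in nature, acute, chronic and control peled, and at 158, 139, 168 and 123 in the same states of omul. The groups did not overlap in aquaculture for either gene, and the sum differed by -0.12 (SE 0.40, limma adjusted p = 0.791). TRINITY_DN14603_c1_g1 was at 21.9, 66.4, 59.9 and 64.7 in nature, acute, chronic and control peled, and at 28.3, 2.02, 1.97 and 3.38 in the same states of omul. TRINITY_DN14603_c1_g2 was at 46.4, 1.83, 2.38 and 0.602 in nature, acute, chronic and control peled, and at 43.3, 71.2, 66.8 and 81.6 in the same states of omul. Their sum ran from 62.3 to 68.2 in aquaculture-reared peled and from 68.7 to 85.0 in aquaculture-reared omul, a difference of -0.21 (SE 0.35, limma adjusted p = 0.593).

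The sums of mirrored pairs of a component were mostly close between the species. The species difference of the summed pair, averaged over the 3 aquaculture states, was within 2-fold in 22 of 26 pairs (84.6%), against 55.6% of the 510582 mirrored pairs from different components. The median absolute log2 difference of the sum was 0.37 and 0.87 in these 2 sets. In a fit of all 2078 components, each summed over its listed genes, the sum was called in 5 of the 26 components with a mirrored pair, 2 higher and 3 lower in peled (limma, adjusted p below 0.05), while 83.9% of all sums and 59 of the 99 sums of components with several genes (59.6%) were called. The 5 were TRINITY_DN2940_c1 at 1.64 (SE 0.31, limma adjusted p = 0.00131), TRINITY_DN34008_c0 at 1.73 (SE 0.37, limma adjusted p = 0.00246), TRINITY_DN24391_c0 at -1.06 (SE 0.33, limma adjusted p = 0.0171), TRINITY_DN22147_c1 at -0.93 (SE 0.31, limma adjusted p = 0.0208) and TRINITY_DN197496_c0 at -0.78 (SE 0.29, limma adjusted p = 0.0325). A sum that was not called is not shown to be equal in both species. Without acute peled or acute omul the sum was called in 2 of the 26 components, and without control peled or control omul in 3. The 26 pairs were chosen for opposite differences of their genes in the same libraries, and opposite differences offset each other in a sum. These counts are therefore a description. Of the 2078 sums, 1979 are those of single genes, so the 83.9% is mainly a share of genes. The share called among summed mirrored pairs from different components was not computed.

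**Figure D2:**
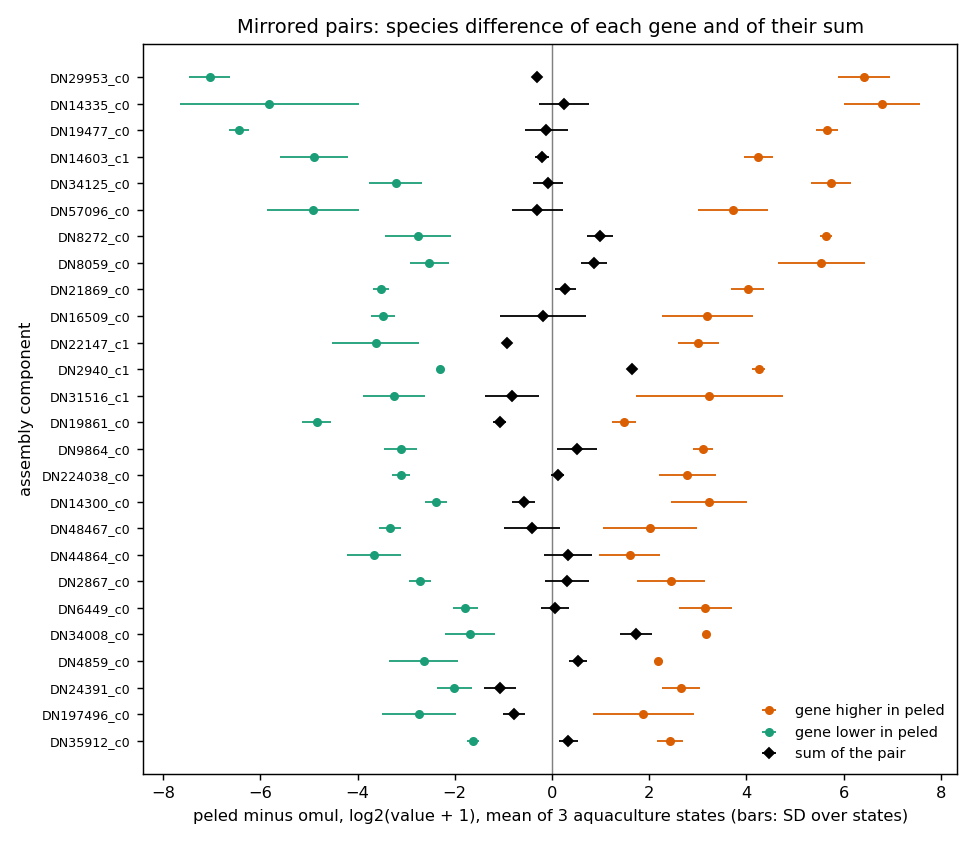
Peled minus omul difference on the log2(value + 1) scale, averaged over the 3 aquaculture states, for the gene higher in peled (orange), the gene lower in peled (green) and the sum of the pair (black diamonds) in the 26 mirrored pairs, 1 per row; bars are the SD over states. The genes lie on opposite sides of 0 in every row by definition, and 22 of the 26 sums lie between -1 and 1.

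The values of the nature libraries do not enter the definition of mirrored pairs. That definition was set when a smaller species difference in nature had already been reported, so nature is not an independent check. A nonzero value in nature is the rule. Of the 205 members, 1 was at 0 in nature peled and 0 in nature omul, and of all listed genes 0.916% and 0.275%. Both genes of all 26 pairs had a nonzero value in both nature libraries. Some of these values were low, such as 0.609 for TRINITY_DN48467_c0_g1 and 1.69 for TRINITY_DN48467_c0_g2 in nature omul. In nature peled TRINITY_DN44864_c0_g2 was at 1.52. A ratio near equality can therefore come from 2 low values. In all 26 pairs the log2 ratio lay, in nature peled and in nature omul alike, between the aquaculture-reared ratios of omul and those of peled. This was so in 62.1% of mirrored pairs from different components. On the log2(value + 1) scale both nature ratios were within 2-fold of equality in 11 of the 26 pairs (42.3%, against 17.4%). The pair of TRINITY_DN48467_c0 is among the 11, although its plain values in nature omul, 1.69 and 0.609, are more than 2-fold apart. The nature ratio ran from -2.92 to 1.54 in peled and from -2.48 to 1.17 in omul, and in 24 of 26 pairs (92.3%, against 60.4%) the 2 nature libraries were less than 2-fold apart in it. As a share of the pair's sum, the gene higher in peled held a median of 33.5% in nature peled (range 10.1% to 75.4%) and 46.6% in nature omul (14.7% to 73.5%). In aquaculture its median share was 96.0% in acute, 94.2% in chronic and 94.7% in control peled, and 5.32% in acute, 4.16% in chronic and 4.82% in control omul. The medians of the 3 states lay close together within each species. The range of this share was 52.2% to 100% in acute, 53.3% to 100% in chronic and 48.6% to 100% in control peled. In omul it was 0.0742% to 44.0% in acute, 0% to 36.0% in chronic and 0.163% to 45.7% in control. Some pairs were thus far less one-sided than the median, and these ranges overlap those of nature. The difference of the species difference between nature and aquaculture was called for both genes, in opposite directions, in 18 of the 26 pairs (69.2%, against 65.1% of mirrored pairs from different components; limma, adjusted p below 0.05), a share near that background.

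**Figure D3:**
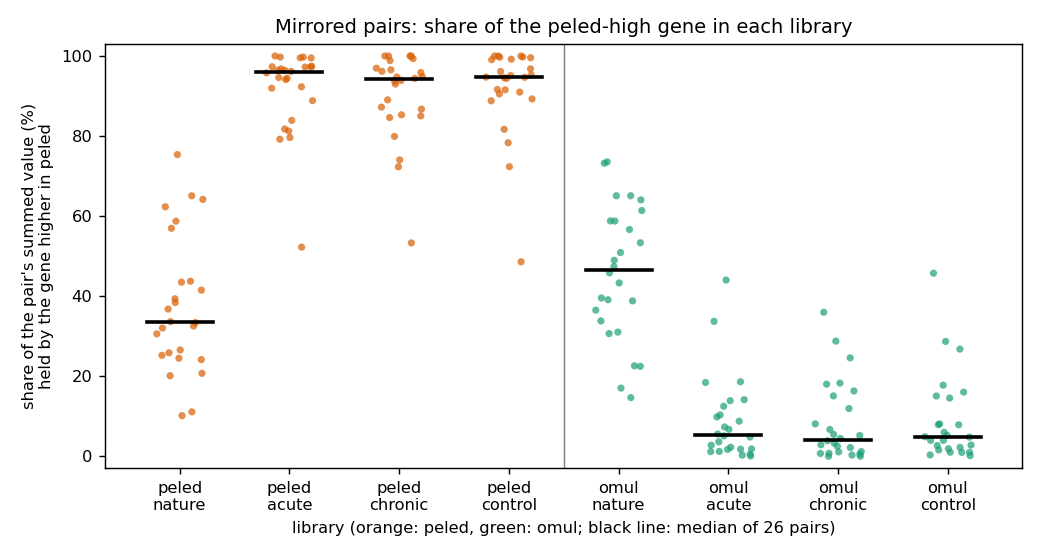
Share of the summed value of a mirrored pair held by the gene higher in peled, in percent, for 26 pairs (points) in each of the 8 libraries, with the median as a black line; peled is orange and omul green. The medians are 33.5% and 46.6% in nature, 94.2% to 96.0% in aquaculture-reared peled and 4.16% to 5.32% in aquaculture-reared omul.

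Another 18 pairs (15.9%, against 34.2% of pairs from different components) diverged between the species without mirroring, with aquaculture-reared ratios that did not overlap and means at least 4-fold apart. In 11 of them the mean differences of the genes had opposite signs, and in 7 both genes were lower in peled, to unequal degrees. Both nature ratios lay between the aquaculture-reared ratios of the species in 11 of the 18 (61.1%, against 18.1%). The largest ratio difference among these pairs, 7.17, was between genes of TRINITY_DN8272_c0. It was 10.4 with a pseudocount of 0.1 and 4.51 with 5, where the pair of TRINITY_DN7158_c0 (5.90 with a pseudocount of 1) was larger at 4.87. TRINITY_DN8272_c0_g1 was at 2.92, 55.2, 46.7 and 48.2 in nature, acute, chronic and control peled, and at 16.3, 0.0190, listed at 0 and 0.0360 in the same states of omul. TRINITY_DN8272_c0_g3 was at 13.3, 3.02, 4.19 and 5.32 in nature, acute, chronic and control peled, and at 17.9, 10.4, 27.2 and 8.68 in the same states of omul. TRINITY_DN8272_c0_g4 was at 11.2, 1.45, 7.15 and 2.40 in nature, acute, chronic and control peled, and at 9.14, 25.6, 33.4 and 22.1 in the same states of omul. The first of these was thus almost absent from aquaculture-reared omul yet present in nature omul. The second had higher values in all aquaculture-reared omul libraries than in any aquaculture-reared peled library, and the last mirrored the first. Over the aquaculture-reared libraries the log2 difference was 5.64 (SE 0.28, limma adjusted p = 1.43e-05), -1.52 (SE 0.39, limma adjusted p = 0.00728) and -2.76 (SE 0.35, limma adjusted p = 0.00021) in that order.

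TRINITY_DN7158_c0 diverged through a gene that was uneven within omul. TRINITY_DN7158_c0_g1 was at 769, 45.7, 179 and 73.1 in nature, acute, chronic and control peled, and at 356, 419, 384 and 281 in the same states of omul. TRINITY_DN7158_c0_g2 was at 309, 93.7, 183 and 102 in nature, acute, chronic and control peled, and at 289.6, 104, 0.151 and 4.10 in the same states of omul. In acute omul the second gene stood near its peled level, and in chronic omul near 0. Its aquaculture-reared difference was 3.84 (SE 1.17, limma adjusted p = 0.0156), with an SD of 3.76 over the 3 states. The log2 ratio of the second gene to the first changed by 3.79 between acute and control omul and by -2.60 between chronic and control omul.

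In 2 further components 1 gene had far lower values in aquaculture-reared peled than its partner. TRINITY_DN10607_c0_g2 was at 1231, 121, 213 and 275 in nature, acute, chronic and control peled, and at 452, 623, 592 and 459.7 in the same states of omul. TRINITY_DN10607_c0_g4 was at 1301, 21.0, 1.27 and 1.68 in nature, acute, chronic and control peled, and at 407, 772, 700.0 and 522 in the same states of omul. The second gene differed by -7.00 (SE 0.60, limma adjusted p = 4.85e-05) in aquaculture, the most negative of all members after TRINITY_DN29953_c0_g2 with -7.04 (SE 0.33, limma adjusted p = 1.43e-05), while in nature both genes were higher in peled. TRINITY_DN13584_c0_g1 was at 631, 62.5, 203 and 84.5 in nature, acute, chronic and control peled, and at 314, 305, 295 and 235 in the same states of omul. TRINITY_DN13584_c0_g2 was at 436, 1.81, 7.56 and 3.53 in nature, acute, chronic and control peled, and at 161, 269, 211 and 233 in the same states of omul. In both components the partners stood within 2-fold of each other in aquaculture-reared omul and far apart in aquaculture-reared peled, with a difference for the second gene of -5.64 (SE 0.44, limma adjusted p = 3.31e-05). On the higher side, the largest aquaculture-reared differences were 6.96 (SE 1.35, limma adjusted p = 0.00178) for TRINITY_DN75747_c0_g1 and 6.80 (SE 0.40, limma adjusted p = 1.61e-05) for TRINITY_DN14335_c0_g1. The same 4 genes led the 8-library fit, at 5.25 (SE 0.93, limma adjusted p = 1.85e-06), 5.05 (SE 0.87, limma adjusted p = 1.11e-06), -5.36 (SE 0.88, limma adjusted p = 1.91e-07) and, for TRINITY_DN10607_c0_g4, -4.83 (SE 0.92, limma adjusted p = 1.10e-05). There the SE came from all listed genes, whereas the aquaculture-reared difference of TRINITY_DN75747_c0_g1 itself had an SD of 4.35 over the 3 states. In that fit TRINITY_DN75747_c0_g1 was not called once chronic peled (adjusted p = 0.119, limma) or chronic omul (0.143) was left out. TRINITY_DN14335_c0_g1 was not called without chronic omul (0.0756), nor TRINITY_DN10607_c0_g4 without a control or chronic library of either species (0.0902 to 0.134).

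The genes of TRINITY_DN75747_c0 differed between states in omul, and the second also in peled. TRINITY_DN75747_c0_g1 was at 985, 1249, 1678 and 1323 in nature, acute, chronic and control peled, and at 927, 1.02, 1.05 and 343 in the same states of omul. TRINITY_DN75747_c0_g2 was at 248, 25.6, 327 and 198 in nature, acute, chronic and control peled, and at 112, listed at 0, listed at 0 and 4.08 in the same states of omul. The heated omul libraries were thus near or at 0 for both genes, while both were high in nature omul. In acute peled the second gene was the lowest of its 4 peled values. The log2 ratio of the first gene to the second changed by -5.07 between acute and control omul on the log2(value + 1) scale. The inverse ratio changed by 2.87 with a pseudocount of 0.1, so the size depends on the pseudocount. The acute minus control difference over both species was -3.75 (SE 1.31, limma adjusted p = 0.505) for TRINITY_DN75747_c0_g1 and -2.62 (SE 1.21, limma adjusted p = 1) for TRINITY_DN75747_c0_g2, neither of which passed.

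The species difference itself was compared between origins, as the difference in nature minus the difference in aquaculture. It differed for 102 members (49.8%; limma, adjusted p below 0.05), against 59.8% of all listed genes. Of these, 55 had a more positive difference in nature (26.8%, against 29.8%) and 47 a more negative one (22.9%, against 30.1%). In this fit the heat states stand in for replicates, and nature has 1 library per species, so its calls cannot be examined without a nature library. The most positive were TRINITY_DN10607_c0_g4 at 8.68 (SE 1.64, limma adjusted p = 0.0049) and TRINITY_DN13584_c0_g2 at 7.06 (SE 0.93, limma adjusted p = 0.00172). The most negative were TRINITY_DN8272_c0_g1 at -7.79 (SE 0.52, limma adjusted p = 0.000525) and TRINITY_DN29953_c0_g1 at -7.12 (SE 0.83, limma adjusted p = 0.00123). The first of these 2 depends on the pseudocount, because its aquaculture-reared omul values are at or near 0, and was -11.18 with a pseudocount of 0.1 and -4.88 with 5, called in both. All 4 belong to pairs that diverged between the species in aquaculture, which is partly built in. The aquaculture difference enters both this comparison and the classes of pairs.

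At a 2-fold limit, origin did not shift the ratio of a pair to the same side in both species. In 0 of 113 pairs did the nature ratio lie at least 2-fold outside the aquaculture-reared ratios on the same side in both species, against 14.2% of pairs from different components. Pairs with both nature ratios between the aquaculture-reared ratios of the species leave these on opposite sides. They cannot count here, and they include all 26 mirrored pairs and 11 of the 18 species-divergent pairs. The nearest to the limit were the pairs of TRINITY_DN1146_c0 and TRINITY_DN30081_c1. Their log2 ratios lay outside by at least 0.88 and -0.85 in both species. As a mean over both species, 0 members were called between nature and the control (limma, adjusted p below 0.05), with 47 (22.9%) at an unadjusted p below 0.05, against 0.137% and 14.5% of all listed genes. Without nature peled 52 members were called and without nature omul 145, in fits where the contrast rests on the remaining nature library.

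Acute warming was the heat treatment with called members. Over both species 7 members were higher in acute than in control larvae and 0 were lower (3.41%; limma, adjusted p below 0.05), against 0.687% of all listed genes. At an unadjusted p below 0.05 there were 12 (5.85%, against 1.69%). With a pseudocount of 0.1 only TRINITY_DN46048_c0_g2 was called (limma adjusted p = 0.0231). The 7 come from 4 components that hold 9 listed genes. In TRINITY_DN46048_c0 all 3 genes rose. TRINITY_DN46048_c0_g1 was at 0.803, 96.2, 4.25 and 0.284 in nature, acute, chronic and control peled, and at 0.520, 15.6, 2.07 and 0.396 in the same states of omul. TRINITY_DN46048_c0_g2 was at 1.11, 399, 22.8 and 3.51 in nature, acute, chronic and control peled, and at 1.90, 80.5, 14.9 and 1.92 in the same states of omul. TRINITY_DN46048_c0_g3 was at 2.64, 227, 11.5 and 3.79 in nature, acute, chronic and control peled, and at 4.25, 54.9, 8.78 and 2.73 in the same states of omul. Acute values were the highest in each species for each of the 3 genes, chronic values came next, and control and nature values were low. The log2 difference of acute minus control was 4.91 (SE 1.05, limma adjusted p = 0.00171), 5.64 (SE 1.13, limma adjusted p = 0.000726) and 4.74 (SE 1.12, limma adjusted p = 0.00481) in that order.

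TRINITY_DN48459_c0 held 2 genes that rose. TRINITY_DN48459_c0_g1 was at 1.43, 55.2, 3.27 and 0.472 in nature, acute, chronic and control peled, and at 0.152, 10.5, 0.218 and 1.01 in the same states of omul. TRINITY_DN48459_c0_g2 was at 2.26, 259, 6.26 and 0.143 in nature, acute, chronic and control peled, and at 2.34, 28.6, 0.857 and 4.48 in the same states of omul. For both, chronic values lay above the control in peled and below it in omul. The log2 difference of acute minus control was 3.89 (SE 1.07, limma adjusted p = 0.0393) and 5.13 (SE 1.06, limma adjusted p = 0.000898). With a pseudocount of 0.1 neither was called, and TRINITY_DN48459_c0_g2 had a limma adjusted p = 0.0724. In the 6 aquaculture-reared libraries alone the first was called (limma adjusted p = 0.0487) and TRINITY_DN48459_c0_g2 was not (0.119). Leaving out either nature library nearly repeats that fit, and TRINITY_DN48459_c0_g2 was not called there either.

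In the other 2 components 1 gene was called and its partner was not. TRINITY_DN60848_c0_g1 was at 2.09, 192, 10.3 and 3.00 in nature, acute, chronic and control peled, and at 2.30, 57.8, 9.30 and 2.47 in the same states of omul. TRINITY_DN60848_c0_g2 was at 10.7, 194, 12.4 and 6.57 in nature, acute, chronic and control peled, and at 5.63, 128, 17.5 and 8.57 in the same states of omul. The partners behaved alike, with acute values the highest in each species, and the log2 differences were 4.84 (SE 1.10, limma adjusted p = 0.00317) for the called gene and 4.22 (SE 1.19, limma adjusted p = 0.0519) for the other. TRINITY_DN3509_c4_g1 was at 20.8, 101, 15.1 and 29.8 in nature, acute, chronic and control peled, and at 21.7, 47.2, 8.76 and 8.47 in the same states of omul. TRINITY_DN3509_c4_g3 was at 4.45, 245, 8.42 and 1.83 in nature, acute, chronic and control peled, and at 3.10, 43.7, 1.04 and 3.75 in the same states of omul. The partner also had its highest values in acute larvae, and its control values were the higher of the 2 genes in both species. The log2 difference was 4.84 (SE 1.09, limma adjusted p = 0.00314) for TRINITY_DN3509_c4_g3 and 2.04 (SE 1.20, limma adjusted p = 1) for its partner TRINITY_DN3509_c4_g1, and the difference between these partners was not tested. In the 6 aquaculture-reared libraries alone 8 members were called (3.90%, against 0.733%) and 26 had an unadjusted p below 0.05 (12.7%, against 8.61%). These 8 include TRINITY_DN60848_c0_g2 (limma adjusted p = 0.00477) and, from a further component, TRINITY_DN87095_c0_g2 (0.00477), but not TRINITY_DN48459_c0_g2. The count of the 8-library fit depended on single libraries. It was 0 without control peled or acute peled, 1 without control omul or acute omul, and 2 without chronic peled or chronic omul. Without an acute or control library that level came from the other species alone, against a level fitted from both species. TRINITY_DN46048_c0_g2 then had log2 differences of 4.61 to 6.66, beside 6.47 within peled and 4.80 within omul in the full set.

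**Figure D4:**
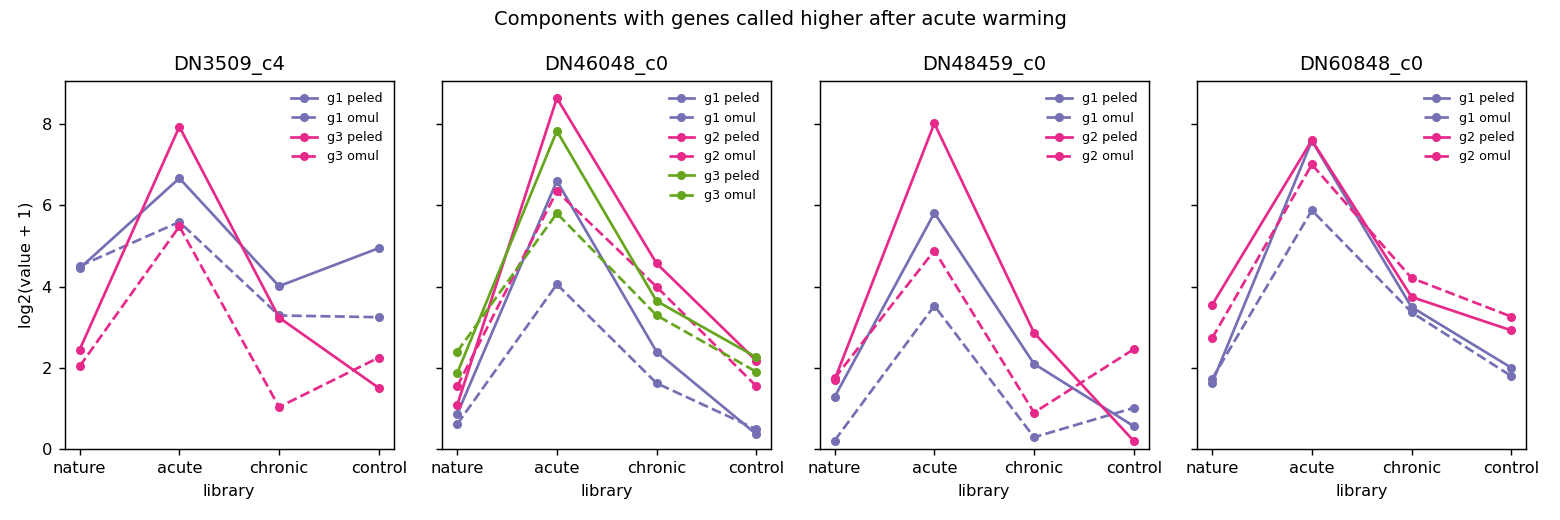
log2(value + 1) of the 9 genes of the 4 components with a member called higher after acute warming, in nature, acute, chronic and control libraries (x axis); colours are genes, solid lines peled and broken lines omul. Acute is the highest point of every line, up to 399 in peled and 128 in omul on the value scale.

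After chronic warming 0 members were called against the control (limma, adjusted p below 0.05), with 2 (0.976%) at an unadjusted p below 0.05, against 0% and 1.01% of all listed genes. In the 6 aquaculture-reared libraries alone 0 were called as well, against 0.137%, and 37 (18.0%, against 15.4%) had an unadjusted p below 0.05. The spread of the 8-library fit includes any change of the species difference between nature and aquaculture, which was called for 59.8% of listed genes. Its 1.01% lies under the nominal level of 0.05, so the fit is conservative for heat. Its 0 calls do not show that nothing changed. The 2 of the 8-library fit were TRINITY_DN46048_c0_g2 at 2.42 (SE 1.13, limma adjusted p = 1) and TRINITY_DN75747_c0_g1 at -3.52 (SE 1.31, limma adjusted p = 1). The acute and chronic comparisons share their control libraries.

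Warming seldom changed the ratio of a pair alike in both species. In 0 of 113 pairs was the log2 ratio at least 1 apart between acute and control with the same sign in both species, against 9.53% of pairs from different components. This held in 5 pairs with a pseudocount of 0.1 (4.42%, against 13.6%). For chronic against control this held in 2 pairs (1.77%, against 14.9%), in 8 with a pseudocount of 0.1 (7.08%, against 20.4%) and in 0 with 5. The pair of TRINITY_DN46048_c0_g2 and TRINITY_DN46048_c0_g3 changed by 1.01 in peled and 1.06 in omul, towards the first gene. TRINITY_DN1406_c0_g1 was at 3325, 107, 463 and 139 in nature, acute, chronic and control peled, and at 1578, 625, 1198 and 536 in the same states of omul. TRINITY_DN1406_c0_g2 was at 2332, 269, 554 and 334 in nature, acute, chronic and control peled, and at 1373, 792, 439 and 704 in the same states of omul. The ratio of the second to the first of these changed by -1.002 in peled and -1.84 in omul. Within a single species such changes were more frequent but fewer than between components. The acute ratio was at least 2-fold from the control in 17 pairs of peled (15.0%, against 31.5%) and 11 of omul (9.73%, against 32.2%). The chronic ratio was so in 27 pairs of peled (23.9%, against 46.2%) and 18 of omul (15.9%, against 35.4%). Each of these counts compares single libraries and has no test.

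The 7 components with 3 listed genes held both shared and divergent pairs. In 4 of them all 3 pairs shared a profile, namely TRINITY_DN16552_c0, TRINITY_DN24414_c0, TRINITY_DN46048_c0 and TRINITY_DN9807_c0. TRINITY_DN16552_c0_g1 was at 124, 7.89, 16.6 and 13.1 in nature, acute, chronic and control peled, and at 76.3, 28.6, 31.9 and 36.8 in the same states of omul. TRINITY_DN16552_c0_g2 was at 254, 14.6, 35.7 and 24.4 in nature, acute, chronic and control peled, and at 132, 74.9, 81.7 and 80.1 in the same states of omul. TRINITY_DN16552_c0_g3 was at 658, 30.6, 79.7 and 54.6 in nature, acute, chronic and control peled, and at 341, 228, 208 and 233 in the same states of omul. The 3 genes kept the same order of level in every library and were highest in nature. All 3 were lower in aquaculture-reared peled, at differences of -1.35 (SE 0.33, limma adjusted p = 0.00589), -1.71 (SE 0.38, limma adjusted p = 0.00333) and -2.10 (SE 0.43, limma adjusted p = 0.00247).

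TRINITY_DN9807_c0_g2 was at 5.16, 5.01, 4.12 and 2.98 in nature, acute, chronic and control peled, and at 9.68, 17.4, 27.0 and 42.5 in the same states of omul. TRINITY_DN9807_c0_g3 was at 16.9, 14.1, 9.74 and 3.68 in nature, acute, chronic and control peled, and at 4.50, 14.0, 64.6 and 64.8 in the same states of omul. TRINITY_DN9807_c0_g4 was at 4.39, 4.76, 2.63 and 0.761 in nature, acute, chronic and control peled, and at 1.90, 5.40, 23.6 and 22.5 in the same states of omul. In omul all 3 were highest in the chronic and control libraries, whereas in the acute libraries the last 2 stood at nearly equal values in both species. The aquaculture-reared difference was -2.51 (SE 0.40, limma adjusted p = 0.000623), -2.14 (SE 0.66, limma adjusted p = 0.0164) and -2.22 (SE 0.62, limma adjusted p = 0.0106), so all 3 were lower in peled. TRINITY_DN24414_c0_g1 was at 1.62, 23.6, 40.4 and 21.1 in nature, acute, chronic and control peled, and at 1.42, 6.05, 7.84 and 10.4 in the same states of omul. TRINITY_DN24414_c0_g2 was at 3.09, 17.9, 31.5 and 15.6 in nature, acute, chronic and control peled, and at 4.06, 13.5, 21.6 and 21.7 in the same states of omul. TRINITY_DN24414_c0_g3 was at 5.58, 41.6, 52.7 and 20.8 in nature, acute, chronic and control peled, and at 2.97, 22.2, 30.1 and 22.9 in the same states of omul. These 3 were lowest in nature in both species. Only the first of them was called between species, at 1.66 (SE 0.36, limma adjusted p = 0.00299), and the others had 0.15 (SE 0.35, limma adjusted p = 0.69) and 0.51 (SE 0.36, limma adjusted p = 0.214), differences between partners that were not tested.

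The remaining 3-gene components, TRINITY_DN8272_c0 above among them, held a pair that diverged between the species. TRINITY_DN2988_c0_g1 was at 4.85, 131, 20.1 and 25.1 in nature, acute, chronic and control peled, and at 12.5, 28.3, 11.3 and 16.4 in the same states of omul. TRINITY_DN2988_c0_g2 was at 2.41, 34.6, 10.98 and 5.19 in nature, acute, chronic and control peled, and at 6.91, 24.3, 12.6 and 14.4 in the same states of omul. TRINITY_DN2988_c0_g3 was at 1.24, 43.3, 26.8 and 11.7 in nature, acute, chronic and control peled, and at 2.05, 5.49, 4.07 and 3.55 in the same states of omul. Acute values were the highest in each species for all 3. The aquaculture-reared differences were 1.18 (SE 0.41, limma adjusted p = 0.0271), -0.34 (SE 0.40, limma adjusted p = 0.448) and 2.24 (SE 0.35, limma adjusted p = 0.000585), so that the first and last were higher in peled. TRINITY_DN19861_c0_g1 was at 7.25, 1.47, 2.59 and 2.89 in nature, acute, chronic and control peled, and at 31.4, 88.2, 85.2 and 104 in the same states of omul. TRINITY_DN19861_c0_g2 was at 15.2, 243, 259 and 217 in nature, acute, chronic and control peled, and at 48.4, 113, 216 and 165 in the same states of omul. TRINITY_DN19861_c0_g3 was at 3.64, 51.8, 43.8 and 51.4 in nature, acute, chronic and control peled, and at 9.17, 14.5, 16.6 and 19.9 in the same states of omul. In aquaculture-reared peled the first of these was far below both partners, and in omul it stood between them in all 4 libraries. Its difference was -4.84 (SE 0.32, limma adjusted p = 2.15e-05), against 0.59 (SE 0.42, limma adjusted p = 0.219) for the second and 1.48 (SE 0.33, limma adjusted p = 0.00364) for the third, and the sum of the 3 differed by 0.11 (SE 0.42, limma adjusted p = 0.817).

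**Figure D5:**
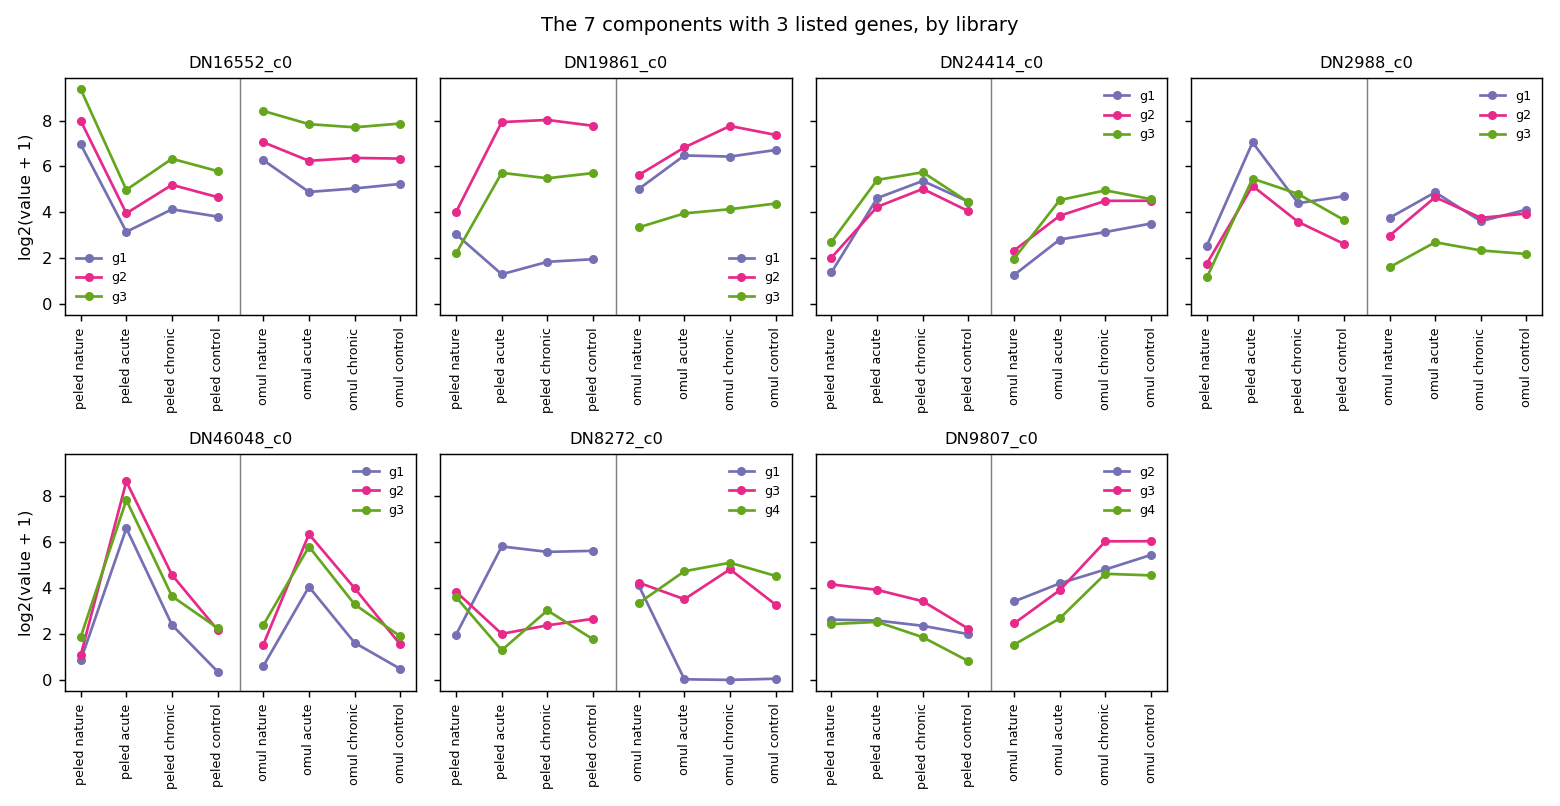
log2(value + 1) of the 21 genes of the 7 components with 3 listed genes, 1 panel per component, by library (peled left and omul right of the line in each panel). In each species all 3 lines are highest in nature in DN16552_c0 and in acute in DN46048_c0. In contrast, g1 of DN8272_c0 is at or near 0 in aquaculture-reared omul. The value of g1 of DN19861_c0 lies between 1.47 and 2.89 in aquaculture-reared peled.

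Outside the classes of shared, mirrored and species-divergent pairs lay 8 of the 113 pairs, with SDs of the log2 ratio from 1.02 to 1.90, among them the pairs of TRINITY_DN75747_c0 and TRINITY_DN3509_c4. A single pair, TRINITY_DN53092_c0_g1 and TRINITY_DN53092_c0_g2, met the definitions of both a shared and a species-divergent pair, with an SD of 0.98.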

How the data were processed

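RNA from whole larvae was sequenced in 8 libraries, and the signal analysed here is normalized expression as deposited, in a unit and with a length scaling that the labels do not state. Per the submitters' processing notes Trimmomatic 0.36 and edgeR 4.0.3 were used. Whole reads could not be recovered from the values, so depth is unknown and no counting interval is given. Library sums were 79169 to 228369. Members were found by identifier alone, and members, classes and named genes were chosen with earlier results of these data known. Named were the most extreme pairs of each class, all genes of 3-gene components and the extreme called members of each contrast. The other genes of the 4 components with an acute call, and the partners of named genes, were added after their values were seen. Differences were fitted with limma 3.58.1 in R 4.3.3 on log2(value + 1), without a filter, with a mean-variance trend and Benjamini-Hochberg adjustment over all 2184 genes, or 2078 component sums. The additive model had species and state. A model of 4 means, species by origin, gave the comparison between origins. Residual degrees of freedom were 3, 2 and 4 in the fits of 8 libraries, 6 libraries and 4 means. The prior degrees of freedom, by which limma weighs the trend over all genes, were infinite, 5.54 and 4.14 in that order. Pair classes have no test and stand beside all pairs from different components. Scripts were tested on simulated data. Alternatives were other pseudocounts, a filter on low values, no trend, other class limits, and leaving out each library.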

Additional observations from a re-analysis of the deposited data

Results flagged for a closer look

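The peled minus omul difference differed between nature and aquaculture in 102 of the 205 members in limma's test of that difference of differences, a share of 49.8% beside 59.8% of all listed genes. The difference in nature minus that in aquaculture was 8.68 on the log2 scale for TRINITY_DN10607_c0_g4 and 7.06 for TRINITY_DN13584_c0_g2, both of which were far lower in aquaculture-reared peled than in omul and higher in nature peled than in nature omul. It was -7.79 for TRINITY_DN8272_c0_g1 and -7.12 for TRINITY_DN29953_c0_g1, which had their lowest values in aquaculture-reared omul. The value of TRINITY_DN8272_c0_g1 depends on the pseudocount and was -11.18 with 0.1 and -4.88 with 5. The nature groups hold 1 library each, and the part of that single library in these values was not tested.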

How the results depend on the processing

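Of 145 values of counts under alternatives, 114 were within 1.5 times the reported count. These include counts of 0 that stayed at 0, as in every alternative for members called after chronic warming. The species difference over 8 libraries was 32 higher and 27 lower with a pseudocount of 0.1, against 35 and 37 as reported. Leaving out 1 library at a time gave 4 to 165 members for the species difference over 8 libraries, 121 to 175 in aquaculture, 80 to 138 by origin (aquaculture libraries only), 0 to 8 for acute, and 0 to 145 for nature against control. Component sums called ran from 33 to 62, and from 2 to 4 among the mirrored components. With a pseudocount of 0.1 only 1 member was called after acute warming, and 5 pairs diverged after acute and 8 after chronic warming. With a pseudocount of 5 these pair counts were 1 and 0. Without a trend 1 member was called between nature and control. An SD limit of 0.5 left 28 shared pairs. A limit of 4-fold in each state left 17 mirrored pairs, and in all 17 the nature ratios lay between the species. The cause of these shifts was not tested, apart from the stricter limits, which admit fewer pairs by construction. Without a library of aquaculture the fit of the other 5 has 1 residual degree of freedom, so its p-values are unreliable. No replicate block could be fitted because each group has 1 library and the labels give no replicate numbers; the additive model compares the species within states. Unknown depth, unknown read assignment between partners and single pools limit every value.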
